A study of Rattus norvegicus with 9 samples.

Results

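The 10 genes described here encode plasma-membrane carriers of amino acids: Slc7a11, Slc3a2, Slc7a5, Slc7a1, Slc7a2, Slc1a4, Slc1a5, Slc38a1, Slc38a2 and Slc38a4. They were chosen by name, as Slc7a11 and other amino acid carriers set beside it, from the 32883 genes of the deposited table. All 10 were in the table and all 10 passed the filter on low counts in each of the 3 comparisons. Slc7a11, Slc7a1, Slc1a5 and Slc38a1 passed it against normal control only through the rats given a carcinogen. As a group they are labelled carriers of cystine and neutral amino acids, although Slc7a1 and Slc7a2 carry cationic amino acids.

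The 9 libraries came from the livers of as many male Sprague-Dawley rats, 3 in each of 3 groups. Normal control rats (1, 12 and 3) were on a normal diet and received no carcinogen. DEN model rats (13, 17 and 24) were injected into the abdomen each week for up to 16 weeks with 0.01% diethylnitrosamine (DEN), a compound that hepatocytes convert into a DNA-damaging form and that leads through fibrosis to hepatocellular carcinoma (HCC). PZH administration rats (27, 28 and 42) received the same DEN injections together with Pien-Tze-Huang (PZH), a traditional Chinese medicine. Grouping rests on the letter that opens each rat's name, because the treatment tag in the labels says PZH for DEN model rats as well. The labels give neither the PZH dose nor the week of collection of a sequenced rat, nor whether a piece of liver was tumor or surrounding tissue. Values of the rats are given below in the order in which the rats are named here.

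These carriers are among those through which a liver cell takes up amino acids. Slc7a11 imports cystine in exchange for glutamate, and this import supplies cells with cysteine for glutathione and so helps them withstand ferroptosis, a death by lipid peroxidation. Slc3a2 is the heavy chain that brings Slc7a11, Slc7a5 and some other light chains to the cell surface. Healthy hepatocytes make much of their cysteine from methionine, take up arginine through the low-affinity carrier Slc7a2 and take up alanine and other neutral amino acids through Slc38a2 and Slc38a4, whereas Slc7a5, Slc7a1, Slc1a5 and Slc38a1 are known from proliferating and tumor cells.

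The libraries held between 14922973 and 27161496 counts, the most in PZH administration rat 27. The scaling factors between libraries (TMM, edgeR) differed by group, being 0.731 to 0.799 in normal control rats, 1.21 to 1.58 in DEN model rats and 0.863 to 0.941 in PZH administration rats. Levels are therefore given as CPM, the counts of a gene relative to the TMM-scaled size of its library, and the effect of leaving the factors out stands beside the results it touches. A count of 0 allowed a level of up to 3 counts, which was 0.125 to 0.252 CPM depending on the library and covers counting error only.

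The sampled livers differed in their cell type markers. The summed level of 9 hepatocyte markers was 158546 to 167476 CPM in normal control rats, 32162 to 74361 CPM in DEN model rats and 127809 to 166783 CPM in PZH administration rats. Of the DEN model rats, rat 17 had the highest hepatocyte sum and the lowest sums of 6 ductular markers (235 CPM, against 625 and 756 CPM in rats 13 and 24) and of 8 stellate cell and myofibroblast markers (1050 CPM, against 1980 and 3210 CPM). The ductular sum was 13.4 to 21.1 CPM in normal control rats and 80.9 to 108 CPM in PZH administration rats, and the stellate sum was 195 to 323 CPM and 599 to 725 CPM. The sum of 4 proliferation genes was 5.31 to 7.71 CPM in normal control rats, 101 to 156 CPM in DEN model rats and 26.4 to 73.0 CPM in PZH administration rats. No marker of these lists was at 0 in all rats of a group. In whole tissue, fewer cells of a type and less mRNA in each cell cannot be told apart, and the part that these markers had in the values of the carriers was not tested.

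Promoters are shown for 4 carriers that were all higher in DEN model than in normal control rats: Slc7a11, which differed most, and the 3 carriers whose window held the core at which Atf4, the transcription factor of the amino acid response, is known to bind. Each window is the 250 bases before the RefSeq start on assembly GRCr8, written 5′ to 3′ on the strand of the gene, and capitals mark a searched motif. The windows lie at chr2:136668265-136668514 (minus strand), chr7:129681402-129681651 (minus strand), chr14:98761563-98761812 (minus strand) and chr12:11664238-11664487 (plus strand).
Slc7a11: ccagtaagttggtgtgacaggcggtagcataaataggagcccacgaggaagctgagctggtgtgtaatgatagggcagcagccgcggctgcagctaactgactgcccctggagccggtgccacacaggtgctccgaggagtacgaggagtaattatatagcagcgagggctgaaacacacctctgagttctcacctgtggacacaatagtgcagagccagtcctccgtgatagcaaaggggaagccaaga
Slc38a1: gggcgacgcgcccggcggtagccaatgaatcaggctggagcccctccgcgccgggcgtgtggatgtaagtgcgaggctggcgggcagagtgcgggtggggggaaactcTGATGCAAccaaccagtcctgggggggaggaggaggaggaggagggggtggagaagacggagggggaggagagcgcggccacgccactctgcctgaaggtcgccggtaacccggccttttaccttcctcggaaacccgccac
Slc1a4: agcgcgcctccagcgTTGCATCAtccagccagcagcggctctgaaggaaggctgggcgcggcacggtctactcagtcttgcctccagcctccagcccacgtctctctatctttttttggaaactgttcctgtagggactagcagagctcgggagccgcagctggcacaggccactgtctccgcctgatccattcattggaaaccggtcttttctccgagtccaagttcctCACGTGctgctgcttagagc
Slc7a1: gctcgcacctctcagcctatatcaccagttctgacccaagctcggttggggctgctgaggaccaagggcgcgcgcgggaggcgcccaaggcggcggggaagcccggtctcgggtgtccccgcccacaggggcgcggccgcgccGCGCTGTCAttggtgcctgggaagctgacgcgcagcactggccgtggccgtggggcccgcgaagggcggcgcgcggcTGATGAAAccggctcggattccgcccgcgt

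The motifs were chosen after the values were seen and were read on both strands: the Atf4 core TGATGNAA, the antioxidant response core TGACNNNGC of Nrf2, and the E-box CACGTG. RefSeq gave a window for 8 of the 10 carriers, with 9 windows in all because Slc3a2 had a pair of starts, and none was at hand for Slc7a2 and Slc1a5. TGATGNAA stood in 3 of these 9 windows, those of Slc38a1 (position -142 from the start), Slc1a4 (-235, on the other strand) and Slc7a1 (-30), against 3.4% of 33469 promoters. The form TGATGCAA, which TGATGNAA includes, stood in those of Slc38a1 and Slc1a4 and in 0.693% of promoters. TGACNNNGC stood in 3 windows (Slc3a2, Slc38a2 and Slc7a1) against 10.1%, and CACGTG in 2 (Slc1a4 and Slc7a5) against 5.59%. The window of Slc7a11 held none of these motifs, and sequence outside the windows was not searched. A match is a description of the sequence and not a measured binding site.

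The first comparison, DEN model against normal control, asked which genes went with carcinogen-induced liver disease. Of the 10 carriers, 6 rose and 3 fell at an adjusted p under 0.05 (edgeR quasi-likelihood test, Benjamini-Hochberg over all 14255 genes tested). In the same comparison 45.8% of all genes tested passed, 25.3% of all genes as higher and 20.5% as lower. The risers were Slc7a11, Slc7a5, Slc7a1, Slc1a4, Slc1a5 and Slc38a1, the fallers were Slc7a2, Slc38a2 and Slc38a4, and Slc3a2 did not pass. The groups did not overlap for any of the 10 carriers on the CPM scale, against 58.8% of all genes (31.4% higher and 27.4% lower): the 6 risers were higher, the 3 fallers lower, and Slc3a2 was lower on this scale alone, since its FPKM overlapped with a higher mean in DEN model rats (78.6 against 63.8). At the thresholds used to screen genes in the study (a log2 fold change above 2 in size and an unadjusted P under 0.001), 3 carriers were higher (Slc7a11, Slc7a5 and Slc1a5) and 2 lower (Slc7a2 and Slc38a2), against 12.3% of all genes in either direction, 8.81% higher and 3.49% lower. The study gives no base for its log fold change, which was read here as log2. With library totals in place of TMM factors the median over all genes moved from 0.03 to 0.89 on the log2 scale and the share of genes passing the adjusted test became 57% higher and 6.72% lower. The carriers then still split into 6 higher and 3 lower at the adjusted p, and into 6 higher and 1 lower at the thresholds of the study. The risers Slc7a11, Slc7a1, Slc1a5 and Slc38a1 had few counts in normal control rats and entered the test only through the DEN model rats. For Slc7a1 the normal control rats fell short narrowly, with 10 counts in rat 3. With at least 10 counts in every rat 7 carriers were tested, without Slc7a11, Slc1a5 and Slc38a1. Of these 3 were higher and 3 lower at the adjusted p, against 21.7% and 20.3% of all genes in that fit.

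**Figure D1:**
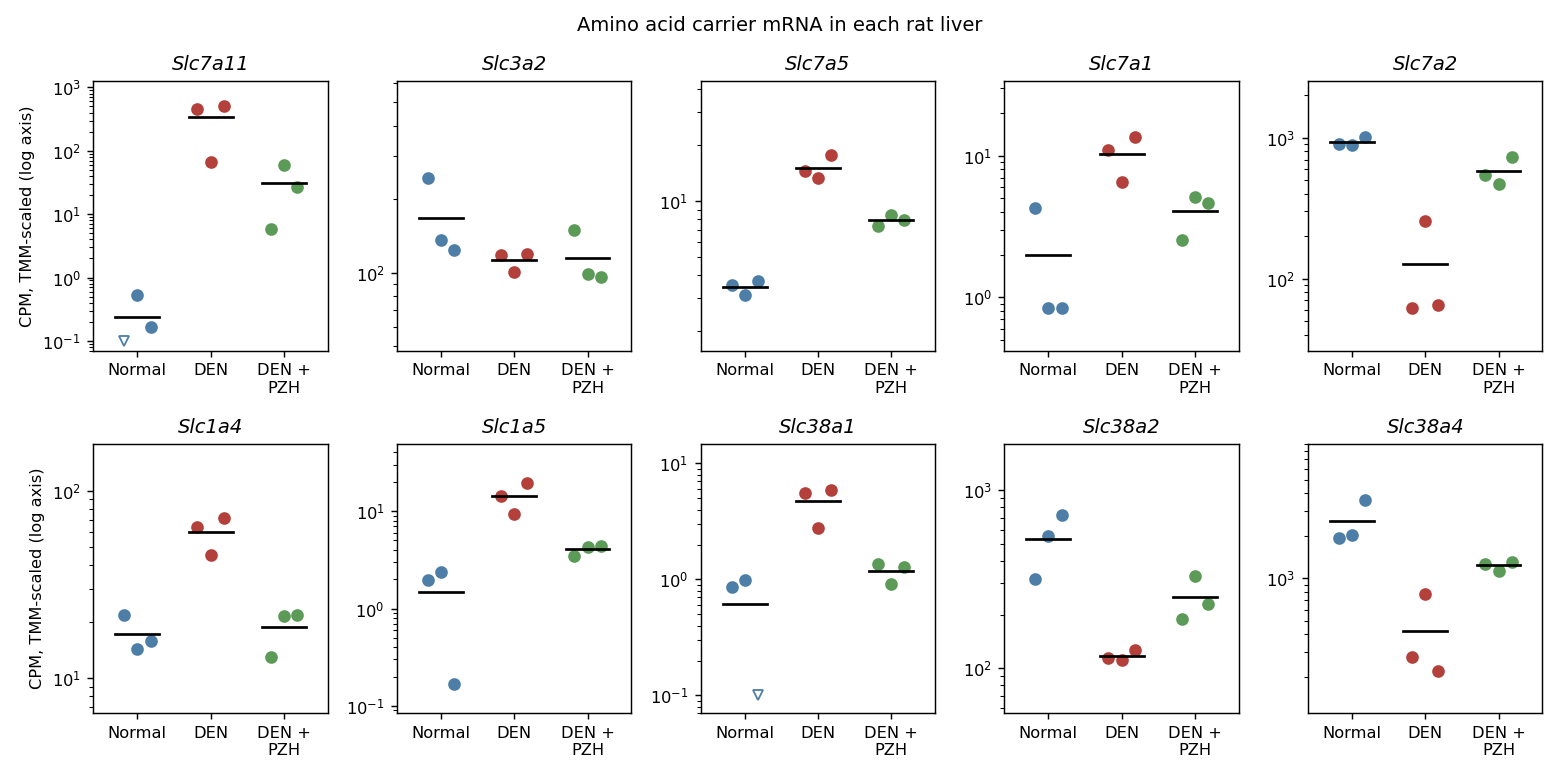
TMM-scaled CPM of each carrier (log axes) in each rat, by group; points are rats, from left to right in the order named in the text, lines are group means (n = 3), and open triangles mark a count of 0, drawn at 0.1 CPM. Slc7a11 lies between 67.1 and 504 CPM in DEN model rats and at or below 0.534 CPM in normal control rats, while Slc7a2 and Slc38a4 show the opposite order.

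Slc7a11 had the widest range of the 10 carriers. Its level was 0, 0.534 and 0.168 CPM in normal control rats, 452, 67.1 and 504 CPM in DEN model rats and 5.89, 59.6 and 26.6 CPM in PZH administration rats. The 3 groups did not overlap, although DEN model rat 17 and PZH administration rat 28 lay close to each other. The normal control values rest on 9 reads in all (0, 7 and 2), against 24105 reads in DEN model rats and 1367 in PZH administration rats. The log2 fold change between DEN model and normal control was 10.46 (SE 1.09, adjusted p = 0.00029), rank 13 from the top of 14255 genes, with a 95% interval of 7.97 to 12.95. Among DEN model rats the highest level was 7.51 times the lowest, and among PZH administration rats 10.1 times.

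Slc3a2, the heavy chain, did not follow its light chain. It was at 245, 136 and 123 CPM in normal control rats, 118, 100 and 119 CPM in DEN model rats and 149, 99.1 and 95.7 CPM in PZH administration rats. All DEN model values lay just under the lowest normal value, but the log2 fold change of -0.56 (SE 0.27) did not pass (adjusted p = 0.12). With library totals its sign turned to 0.30, so no direction is given for it. Slc7a5, the light chain that carries large neutral amino acids such as leucine, was at 3.51, 3.13 and 3.69 CPM in normal control rats, 14.4, 13.2 and 17.7 CPM in DEN model rats and 7.38, 8.42 and 7.91 CPM in PZH administration rats. Its 3 groups were separate and tight, and it rose by 2.15 on the log2 scale from normal control to DEN model rats (SE 0.23, adjusted p = 0.00029).

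The carriers of cationic amino acids moved in opposite directions. Slc7a2, the arginine and lysine carrier of hepatocytes, was at 896, 890 and 1010 CPM in normal control rats, 61.6, 255 and 64.5 CPM in DEN model rats and 546, 471 and 732 CPM in PZH administration rats. The 3 groups did not overlap and DEN model rat 17 again stood between its group and the others. Slc7a2 fell by 2.86 on the log2 scale (SE 0.57, adjusted p = 0.0041). Slc7a1, the high-affinity carrier of the same amino acids, was at 4.29, 0.840 and 0.839 CPM in normal control rats, 10.9, 6.54 and 13.4 CPM in DEN model rats and 2.52, 5.08 and 4.63 CPM in PZH administration rats. Normal control rat 1 was well above the other normal rats and overlapped the PZH administration group but not the DEN model group. Slc7a1 rose by 2.39 (SE 0.60, adjusted p = 0.012), and by 3.60 when normal control rat 1 was left out. Its normal control values rest on 55, 11 and 10 reads.

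Both Slc1 carriers, sodium-dependent exchangers of alanine, serine and cysteine, rose in DEN model rats. Slc1a4 was at 21.6, 14.3 and 15.7 CPM in normal control rats, 63.9, 45.4 and 71.2 CPM in DEN model rats and 12.9, 21.4 and 21.7 CPM in PZH administration rats. The DEN model group stood apart and the other groups overlapped. Slc1a4 rose by 1.82 on the log2 scale (SE 0.23, adjusted p = 0.00059). Slc1a5, which also carries glutamine, was at 1.95, 2.37 and 0.168 CPM in normal control rats, 14.2, 9.31 and 19.6 CPM in DEN model rats and 3.50, 4.31 and 4.42 CPM in PZH administration rats. Its groups did not overlap, but the normal control values rest on 25, 31 and 2 reads. Slc1a5 rose by 3.27 (SE 0.62, adjusted p = 0.0034).

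Of the 3 Slc38 carriers, which take up neutral amino acids with sodium, 1 rose and 2 fell, although the table places them side by side on chromosome 7 between positions 137975549 and 138512952 (the genome build is not given in the sources used here). Slc38a4, the member with the highest level per transcript length in normal liver, was at 1944, 2045 and 3604 CPM in normal control rats, 275, 780 and 220 CPM in DEN model rats and 1269, 1132 and 1316 CPM in PZH administration rats. The groups did not overlap, and the highest DEN model rat was 3.54 times the lowest. It fell by 2.56 on the log2 scale (SE 0.55, adjusted p = 0.0060).

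Slc38a2, the carrier known to be raised when amino acids are short, was at 315, 551 and 730 CPM in normal control rats, 113, 111 and 126 CPM in DEN model rats and 189, 330 and 230 CPM in PZH administration rats. The DEN model rats were close together and below all others on this scale, but in FPKM they overlapped the PZH administration rats. Slc38a2 fell by 2.18 (SE 0.33, adjusted p = 0.0013). Slc38a1, a glutamine carrier, was scarce, at 0.859, 0.992 and 0 CPM in normal control rats, 5.52, 2.77 and 5.91 CPM in DEN model rats and 1.37, 0.905 and 1.28 CPM in PZH administration rats. Only DEN model rats exceeded 2 CPM, the normal values rest on 24 reads, and Slc38a1 rose by 2.93 (SE 0.76, adjusted p = 0.013).

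DEN model rat 17 was placed alike across carriers. It was the lowest DEN model rat for 6 of the 6 risers and the highest for 2 of the 3 fallers, Slc7a2 and Slc38a4. Rat 24 was the highest for 6 of the 6 risers. How often these rats took the same places over all genes was not counted, so the order is not read as particular to the carriers. As given above, rat 17 also had the highest hepatocyte sum and the lowest ductular and stellate sums of its group. In the PZH administration group rat 27, the most deeply sequenced, was the lowest for 5 of the 6 risers and had the highest hepatocyte sum (166783 CPM). The 9 carriers that passed between DEN model and normal control rats did so whichever of the 6 rats was left out, rat 17 included.

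**Figure D2:**
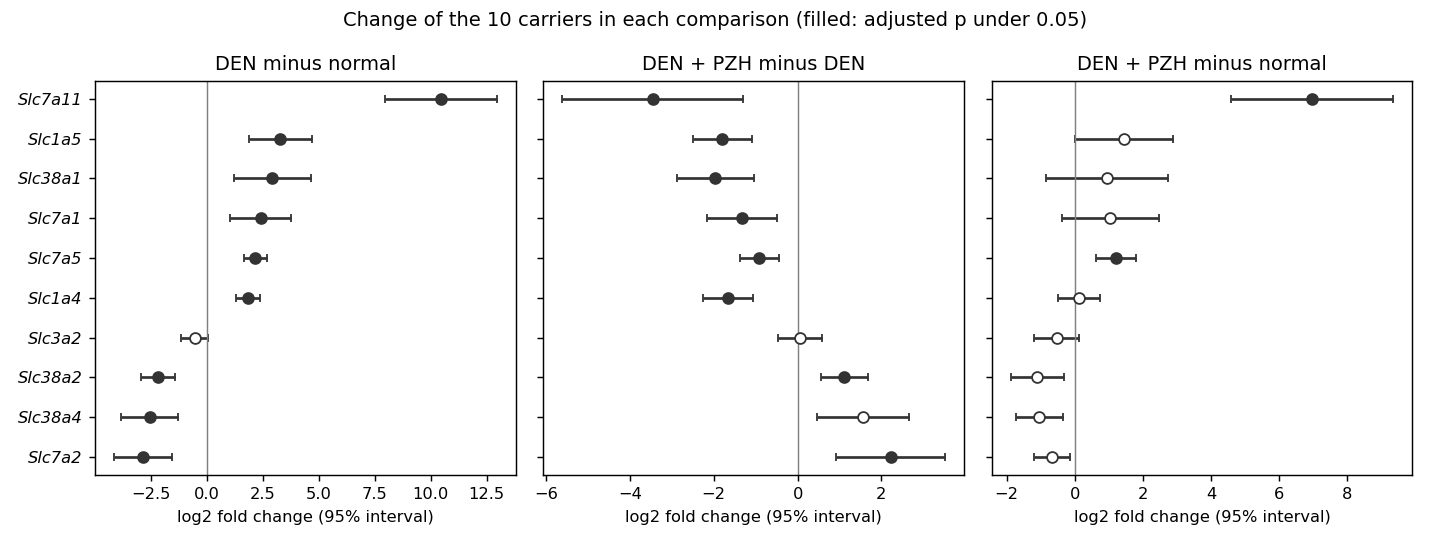
Log2 fold change (horizontal axis) of each carrier in the 3 comparisons, with 95% intervals from the edgeR fit; filled points passed an adjusted p of 0.05. The left panel shows 6 carriers higher and 3 lower in DEN model rats, the middle panel 6 lower and 2 higher in PZH administration rats, and the right panel only Slc7a11 and Slc7a5 past the test.

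The second comparison, PZH administration against DEN model, asked which genes differed when PZH was given. Of the 10 carriers 6 fell and 2 rose at an adjusted p under 0.05, against 10.3% of 14272 genes lower and 8.72% higher, 19.1% together. The fallers were Slc7a11, Slc7a5, Slc7a1, Slc1a4, Slc1a5 and Slc38a1, and the risers were Slc7a2 and Slc38a2. On the CPM scale the groups did not overlap for 9 carriers (all but Slc3a2), 3 higher and 6 lower, against 40.8% of all genes (18.4% higher and 22.5% lower). In FPKM Slc38a2 overlapped, at 29.1 to 42.9 in DEN model and 35.2 to 66.2 in PZH administration rats. This comparison shares the DEN model rats with the first, so the opposite signs are not independent of the values given there. With the edgeR fit made here no carrier passed the thresholds of the study in either direction (0 of 10, against 2.43% of genes, 1.08% higher and 1.35% lower), while 9 had an unadjusted p under 0.05 (34.9% of genes) and DESeq2 placed 1 carrier, Slc7a2, past the thresholds. The study described Slc7a11 as down-regulated after PZH in its transcriptomic data, and its own calls were not used here.

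Slc7a11 fell by 3.46 on the log2 scale with PZH (SE 0.94, 95% interval -5.61 to -1.31, adjusted p = 0.038). Slc7a5, the other light chain, fell by 0.91 (SE 0.20, adjusted p = 0.022), and Slc3a2, which both need, differed by 0.06 (95% interval -0.47 to 0.58, adjusted p = 0.89). Slc1a4 fell by 1.67 (SE 0.26, adjusted p = 0.010), Slc1a5 by 1.80 (SE 0.31, adjusted p = 0.013), Slc7a1 by 1.33 (SE 0.36, adjusted p = 0.039) and Slc38a1 by 1.96 (SE 0.40, adjusted p = 0.018). The arginine carrier Slc7a2 rose by 2.22 (SE 0.57, adjusted p = 0.031) and Slc38a2 by 1.12 (SE 0.24, adjusted p = 0.021). Slc38a4 was higher in every PZH administration rat than in any DEN model rat, by 1.57 (SE 0.48), with an adjusted p of 0.053 that missed the threshold. The call on Slc38a2 was lost with library totals (0.45, adjusted p = 0.20), which moved the median of all genes from 0.01 to -0.67 and gave 1 carrier higher and 6 lower. Of all genes 3.9% were then higher and 39.9% lower.

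The calls of this comparison depended on single rats, for the carriers and for all genes. Slc1a4 was the only carrier under an adjusted p of 0.05 whichever of the 6 rats was left out, and Slc1a5 passed in 5 of 6 cases. Slc7a11, Slc7a1 and Slc7a2 passed in 1 of 6 cases each, the case without DEN model rat 17. A single fit of all 3 groups lost the calls on Slc7a1 (adjusted p = 0.11) and Slc38a1 (adjusted p = 0.059) and made 1 on Slc38a4 (adjusted p = 0.040). The log2 fold change of Slc7a11 lay between -4.38 and -2.96 over these cases and its adjusted p between 0.012 and 0.11. The number of carriers past the test was 9 without DEN model rat 17, 5 without PZH administration rat 27, 3 without rat 42, 2 without rat 28, 2 without DEN model rat 24 and 1 without rat 13. The number of all genes past it moved from 2722 of 14272 with all rats to 3319 of 14681 without DEN model rat 17. It was 2213 of 14809, 1221 of 14862 and 1178 of 14841 without PZH administration rats 27, 42 and 28. Without DEN model rats 24 and 13 it was 725 of 14487 and 271 of 14475.

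The third comparison, PZH administration against normal control, showed which carriers stood away from normal liver under DEN with PZH. Slc7a11 was higher by 6.96 on the log2 scale (SE 1.05, adjusted p = 0.0089) and Slc7a5 by 1.20 (SE 0.26, adjusted p = 0.033), 2 of 10 carriers against 5.21% of 13348 genes (4.07% higher and 1.15% lower). Slc7a11 alone passed the thresholds of the study, against 2.32% of genes (2.16% higher and 0.165% lower). The groups did not overlap for 5 carriers, with Slc7a11, Slc7a5 and Slc1a5 higher and Slc7a2 and Slc38a4 lower, against 24.2% of genes (13.6% higher and 10.6% lower). Slc38a2 (-1.10, SE 0.35, adjusted p = 0.12), Slc38a4 (-1.04, SE 0.30, adjusted p = 0.089) and Slc7a2 (-0.67, SE 0.23, adjusted p = 0.15) did not pass with edgeR, and all 3 passed as lower with DESeq2. The closest to normal was Slc1a4, with a difference of 0.12 and a 95% interval of -0.49 to 0.74. The call on Slc7a5 was lost when any rat but PZH administration rat 27 was left out (adjusted p up to 0.15).

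The FPKM values, which the authors scaled for transcript length and library size, allow the carriers to be set against each other within a liver. In normal control rats Slc38a4 made up 49.9% ± 6.67 (SD, n = 3) of the summed FPKM of the 10 carriers and Slc7a2 31.9% ± 4.35, with Slc38a2 at 9.99% ± 2.66 and Slc3a2 at 7.69% ± 4.09. In DEN model rats Slc38a4 made up 31.0% ± 14.5 and Slc7a2 15.1% ± 9.34, whereas Slc3a2 made up 19.9% ± 5.93 and Slc7a11 15.2% ± 11.4. The share of Slc7a11 was 20.7%, 2.02% and 22.8% in the 3 DEN model rats, with rat 17 far below the others.

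In PZH administration rats the share of Slc7a11 was 0.107%, 1.17% and 0.435%, and Slc38a4 and Slc7a2 led again with 45.2% ± 1.59 and 35.1% ± 4.81. Slc38a4 ranked first in 8 of 9 rats, the exception being DEN model rat 24, where Slc3a2 (91.2 FPKM) and Slc7a11 (89.3 FPKM) stood above Slc38a4 (78.9 FPKM). In the 3 normal control rats Slc38a4, then Slc7a2, stood above all others, and Slc38a2 and Slc3a2 exchanged places between rats.

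**Figure D3:**
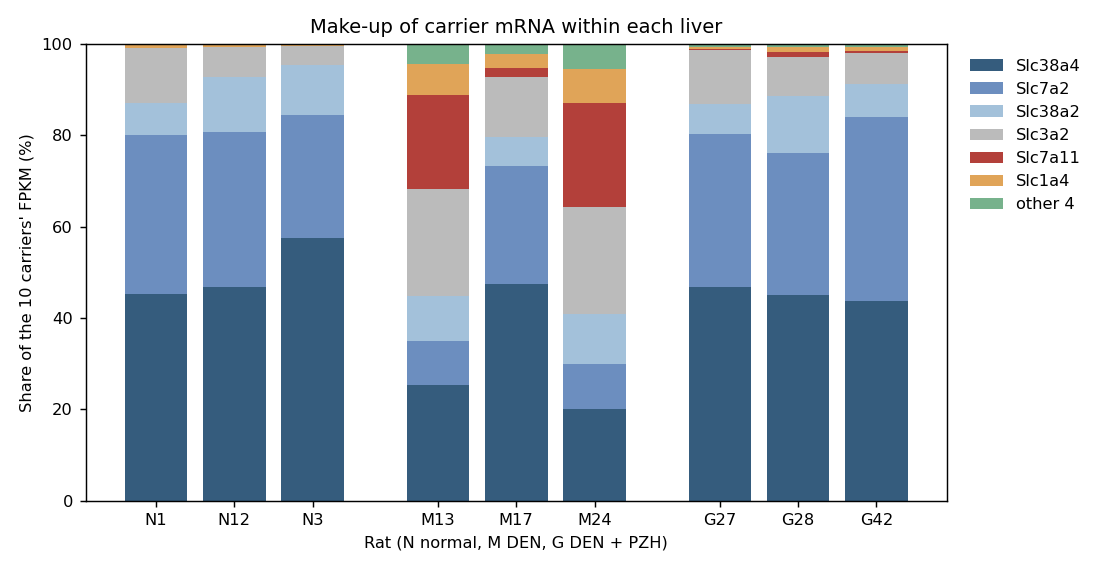
Share of each carrier in the summed FPKM of the 10 carriers (vertical axis, percent), a stacked bar for each rat; 4 carriers with small shares (Slc7a5, Slc7a1, Slc1a5 and Slc38a1) are drawn together. Slc38a4 and Slc7a2 fill most of each normal control and PZH administration bar, and Slc7a11 takes 20.7% and 22.8% in DEN model rats 13 and 24 but 2.02% in rat 17.

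A plain ratio between carriers of 1 liver does not depend on the scaling between libraries. The ratio of Slc7a11 to Slc3a2 was 0, 0.000906 and 0.000314 in normal control rats, 0.885, 0.154 and 0.978 in DEN model rats and 0.00911, 0.139 and 0.0641 in PZH administration rats, so that in DEN model rats 13 and 24 the light chain nearly equalled the heavy chain per transcript length. For the tests 0.1 FPKM was added to each value on the log2 scale. Slc7a11 in all 3 normal control rats, Slc7a1 in rats 12 and 3 and Slc38a1 in rat 3 were under 0.1 FPKM, so that the size of a difference from normal control rests on that constant and on the authors' scaling. The ratio of Slc7a11 to Slc3a2 differed by 8.03 between DEN model and normal control (10.33 with 0.01 FPKM and 4.99 with 1 FPKM added) and by -3.47 between PZH administration and DEN model (-3.55 and -2.93). Slc7a5 to Slc3a2 differed by 2.49 and -0.89.

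The scarce member of the other families was likewise nearer to the abundant one in DEN model rats. Slc7a1 to Slc7a2 differed by 4.88 between DEN model and normal control and by -3.51 between PZH administration and DEN model, and Slc38a1 to Slc38a4 by 5.24 and -3.46. Between PZH administration and normal control the 4 ratios, in the order given, differed by 4.56, 1.60, 1.37 and 1.78 (6.78, 1.70, 1.99 and 2.87 with 0.01 FPKM and 2.06, 1.07, 0.66 and 0.99 with 1 FPKM added). With 0.1 FPKM added the groups did not overlap for any of the 12 differences, each of which had p = 0.1 in an exact two-sided permutation test over rats, the smallest that 3 rats against 3 allow, and 0.1 after adjustment over the 12. The design therefore could not place them under 0.05. The lack of overlap rests on the added constant for Slc7a1 to Slc7a2 between PZH administration and normal control. The plain ratio of Slc7a1 to Slc7a2 was 0.000944 in normal control rat 1, above 0.000909 in PZH administration rat 27.

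**Figure D4:**
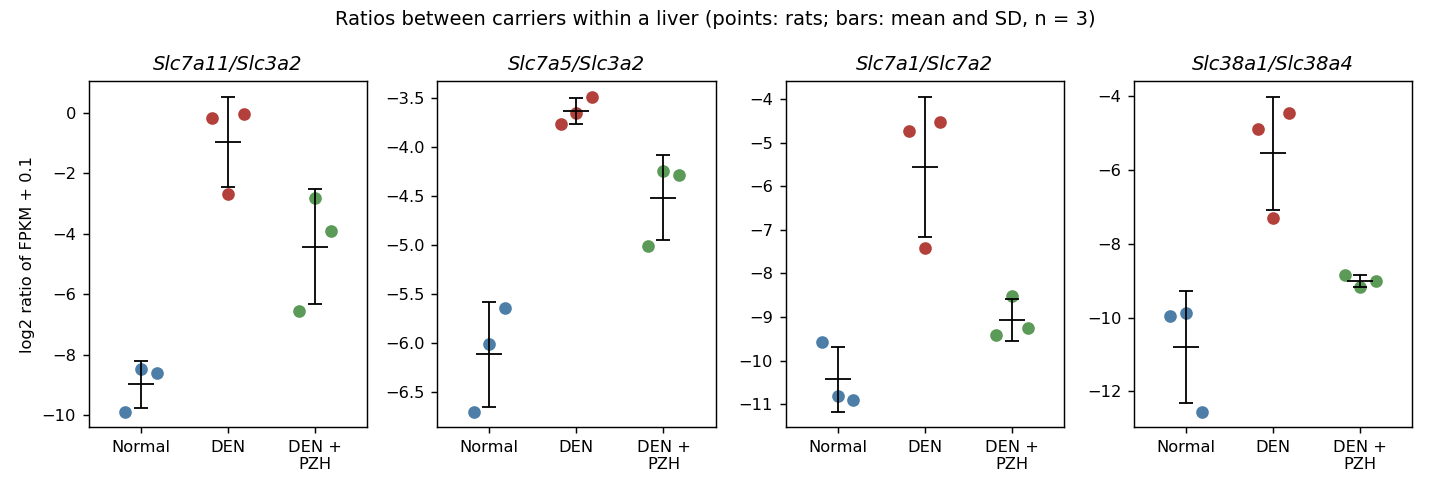
Log2 ratio of FPKM + 0.1 between carriers of 1 liver, by group; points are rats, and bars show mean and SD (n = 3). With 0.1 FPKM added, the DEN model rats are highest, the normal control rats lowest and the PZH administration rats between them without overlap in all 4 panels. In the plain ratio of Slc7a1 to Slc7a2, normal control rat 1 (0.000944) was above PZH administration rat 27 (0.000909).

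Other plasma-membrane amino acid carriers were set beside the 10. For this list and those below, 25.3% of all genes were higher and 20.5% lower in DEN model than in normal control rats. The shares were 8.72% and 10.3% in PZH administration against DEN model, and 4.07% and 1.15% against normal control. Of 32 further carriers 21 had enough counts to be tested in DEN model against normal control rats, of which 7 rose, 6 fell and 8 did not pass. Their median log2 fold change was 0.37, beside 1.99 for the 10 carriers and 0.03 for all genes. The 1.99 rests in part on Slc7a11, Slc7a1, Slc1a5 and Slc38a1, which entered this test only through the DEN model rats. Of the other carriers, Slc7a5 (2.15) and Slc1a4 (1.82) rose and Slc7a2 (-2.86), Slc38a4 (-2.56) and Slc38a2 (-2.18) fell. Slc3a2 (-0.56) did not pass, so no direction of the 10 is read from their median. Slc6a6, the taurine carrier, rose by 3.38 (SE 0.28, adjusted p = 0.00013) and Slc7a6, another light chain of Slc3a2, by 2.55 (SE 0.37, adjusted p = 0.0011). Slc6a13, a carrier of GABA and taurine in hepatocytes, fell by 3.27 (SE 0.54, adjusted p = 0.0018), Slc16a10, a carrier of aromatic amino acids, fell by 2.61 (SE 0.48, adjusted p = 0.0031) and Slc1a2, a glutamate carrier, fell by 2.38 (SE 0.63, adjusted p = 0.015). Slc1a1, a carrier of glutamate and cysteine, had no read in the 3 normal control rats and 8.12, 0.842 and 0.749 CPM in DEN model rats, at least 13.6-fold higher in the mean against a floor of 3 counts in each normal library, and at least 3.34-fold higher without rat 13.

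With PZH, 5 of these 21 carriers rose against DEN model rats and 3 fell (median -0.07, beside -1.12 for the 10 carriers and 0.01 for all genes). Slc7a6 fell by 1.67 (SE 0.33, adjusted p = 0.016), Slc6a6 by 1.45 (SE 0.24, adjusted p = 0.012) and Slc7a7, a light chain for export of cationic amino acids, by 0.96 (SE 0.26, adjusted p = 0.039). Slc6a13 rose by 2.57 (SE 0.55, adjusted p = 0.020), Slc1a2 by 2.30 (SE 0.64, adjusted p = 0.040) and Slc16a10 by 1.74 (SE 0.45, adjusted p = 0.034). Against normal control, Slc6a6 was the 1 carrier of 19 tested that passed (1.91, SE 0.29, adjusted p = 0.0087).

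Genes of the transcription factors known to act on these carriers were set beside them. Of 16 tested genes of the Atf4 programme, the response to amino acid shortage, 5 rose and 5 fell between normal control and DEN model rats (median -0.52). Of all genes 25.3% rose and 20.5% fell in this comparison. Vldlr, a lipoprotein receptor, rose by 4.92 (SE 0.40, adjusted p = 0.00012), Stc2 by 3.51 (SE 0.80, adjusted p = 0.0077) and Phgdh, the first enzyme of serine synthesis, by 3.13 (SE 0.62, adjusted p = 0.0042), while Chac1, which breaks down glutathione, fell by 2.97 (SE 0.47, adjusted p = 0.0016), Sesn2 by 2.11 (SE 0.32, adjusted p = 0.0013) and Cebpb by 1.99 (SE 0.28, adjusted p = 0.00089). With PZH, Chac1 rose by 1.97 (SE 0.54, adjusted p = 0.038), Sesn2 by 0.91 (SE 0.18, adjusted p = 0.016) and Vldlr fell by 1.65 (SE 0.37, adjusted p = 0.023), 3 of 16 genes. Against normal control 1 of 15 was higher and 2 lower in PZH administration rats.

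Of 13 tested genes of the Nrf2 programme, the response to oxidants and electrophiles to which Slc7a11 belongs, 9 rose and 4 did not pass in DEN model rats (median 1.98). Nqo1, a quinone reductase, rose by 3.77 (SE 0.37, adjusted p = 0.00023) and Abcc4, an efflux pump, by 2.67 (SE 0.34, adjusted p = 0.00064). With PZH 4 fell and 9 did not pass (median -0.40), the fallers including Txnrd1 by 1.14 (SE 0.32, adjusted p = 0.043) and Nqo1 by 1.03 (SE 0.25, adjusted p = 0.027). In PZH administration rats 6 of 13 were still above normal control, with Nqo1 at 2.71 (SE 0.32, adjusted p = 0.0041).

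Genes that make and use cysteine were also examined. Of 14 tested genes of cystine and glutathione metabolism, 6 rose and 8 fell in DEN model rats. Cbs and Cth, which make cysteine from methionine by transsulfuration, fell by 3.54 (SE 0.72, adjusted p = 0.0046) and 3.17 (SE 0.53, adjusted p = 0.0020), while Ggt1, which splits glutathione outside the cell, rose by 6.48 (SE 0.57, adjusted p = 0.00015), Dpep1, which splits the resulting cysteinylglycine, by 2.66 (SE 0.28, adjusted p = 0.00031) and Gclm, a subunit of the first enzyme of glutathione synthesis, by 2.42 (SE 0.22, adjusted p = 0.00017). Cth was at 1050, 934 and 744 CPM in normal control rats, 48.8, 190 and 60.2 CPM in DEN model rats and 548, 582 and 706 CPM in PZH administration rats. With PZH, 5 of the 14 rose and 1 fell: Cth rose by 2.64 (SE 0.52, adjusted p = 0.016) and Cbs by 2.45 (SE 0.72, adjusted p = 0.047), and Ggt1 fell by 1.42 (SE 0.32, adjusted p = 0.022). Against normal control 5 were higher and 1, Cbs, lower (-1.13, SE 0.24, adjusted p = 0.031).

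**Figure D5:**
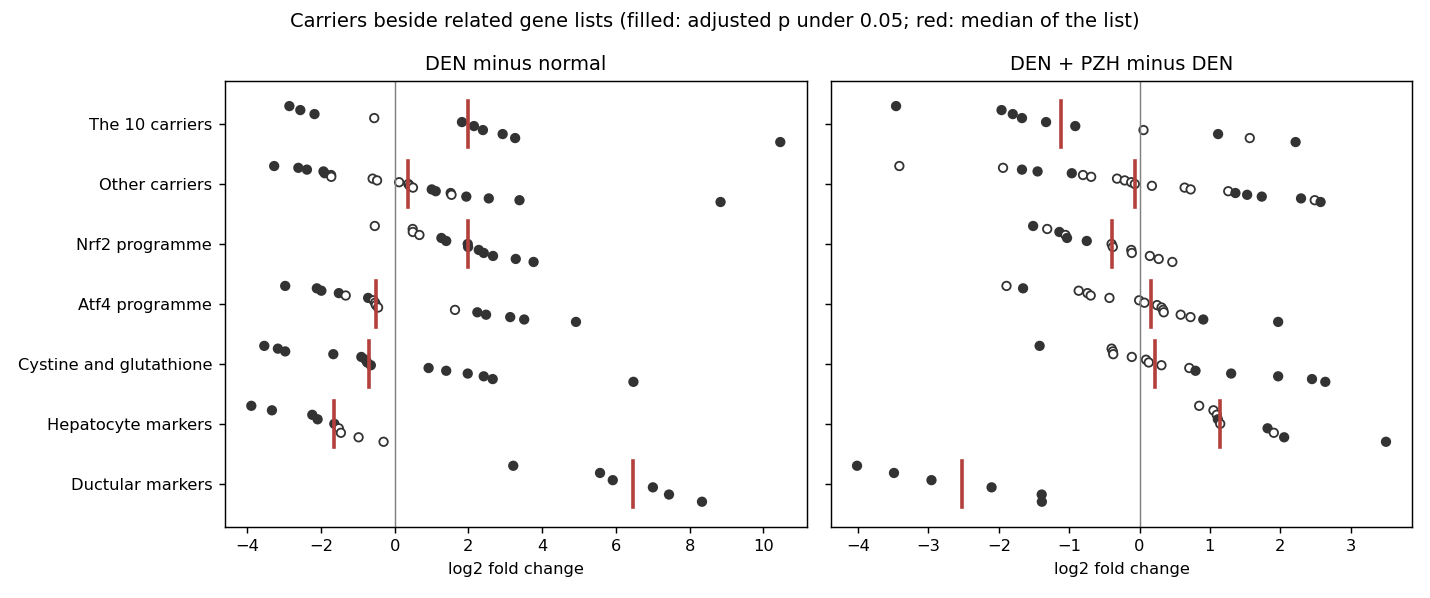
Log2 fold change of each tested gene of the carriers and related lists in DEN model against normal control (left) and PZH administration against DEN model (right); filled points passed an adjusted p of 0.05 and red bars are list medians. On the left, 9 Nrf2 genes pass to the right of 0 while the Atf4 genes pass 5 to each side. The place of Slc1a1 at 8.84 depends on the fit, since it had no read in normal control rats. The left median of the carriers rests in part on carriers that entered the test only through the DEN model rats.

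The hepatocyte markers had a median log2 fold change of -1.64 between normal control and DEN model rats, from -3.89 for Ttr to -0.30 for Apoa1, and 5 of 9 fell. The fallers Slc7a2 (-2.86), Slc38a4 (-2.56) and Slc38a2 (-2.18) lay within that range. The 6 ductular markers all rose, by 3.22 for Epcam to 8.34 for Krt7, a range that held Slc1a5 (3.27), while Slc7a11 (10.46) was above it and Slc38a1 (2.93), Slc7a1 (2.39), Slc7a5 (2.15) and Slc1a4 (1.82) were under it. Of the other lists, 7 of 8 stellate, 4 of 4 proliferation and 3 of 5 lymphocyte genes rose, 2 of 7 macrophage markers fell, and 2 of 5 endothelial markers rose and 2 fell. With PZH, 4 of 9 hepatocyte markers rose, and 6 of 6 ductular, 5 of 8 stellate, 3 of 7 macrophage, 1 of 5 lymphocyte, 1 of 5 endothelial and 1 of 4 proliferation genes fell. Of all genes 8.72% rose and 10.3% fell with PZH. Against normal control, 1 of 9 hepatocyte markers was lower in PZH administration rats and 6 of 6 ductular, 4 of 8 stellate, 1 of 5 endothelial and 4 of 4 proliferation genes were higher.

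The genes whose pattern over the 9 rats was most like that of Slc7a11 were Gpx2, Pla2g7, Gstp1, Aldh3a1 and Dnaaf1. Likeness was the root mean square difference of log2(CPM + 1), centered on the normal control mean, and was 0.888 for Gpx2, a glutathione peroxidase, and 1.23 to 1.34 for the other 4. Gpx2 had a mean of 0.103 CPM in normal control, 122 CPM in DEN model and 17.2 CPM in PZH administration rats. Means in DEN model and PZH administration rats were 109 and 32.5 CPM for Pla2g7 and 1310 and 580 CPM for Gstp1. They were 102 and 90.5 CPM for Aldh3a1, 65.1 and 20.6 CPM for Dnaaf1, and 341 and 30.7 CPM for Slc7a11. DEN model rat 17 was at 37.0 CPM for Pla2g7, 1506 for Gstp1, 59.6 for Aldh3a1 and 56.9 for Dnaaf1, against 67.1 CPM for Slc7a11. Those nearest to Slc7a2 were Cth (0.257), Adhfe1 (0.280), Crp (0.291), Slc26a1 (0.294) and Gls2 (0.295), the last of which is the liver glutaminase. These are descriptions over rats that share their groups.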

How the data were processed

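Liver mRNA libraries of 9 rats (3 normal control, 3 DEN model, 3 PZH administration) were compared over all genes, and only the 10 carriers and related lists are reported. The deposited count columns hold whole reads per gene and rat, not normalized by the authors. The deposited FPKM columns hold the authors' scaling of the same libraries for transcript length and library size. The submitters' processing notes name fastp, HISAT2 2.1.0, StringTie 1.3.3b and edgeR 3.30.3. The genome build and the read counter are not given in the sources used here. The authors' group means, fold changes, P-values and Q-values in the same table were not used.

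Counts were fitted with the edgeR 4.0.16 quasi-likelihood test in R 4.3.3 (TMM factors, filterByExpr, each pair of groups alone, 3 rats against 3) with Benjamini-Hochberg adjustment over all genes tested. The test was tested on simulated data. Intervals are 95%. Ratios used FPKM + 0.1 and exact permutation tests. Genes outside the 10 are the up to 3 highest and 3 lowest fold changes at an adjusted p under 0.05 of each list, and the 5 most like Slc7a11 and Slc7a2. The values of 1 gene that this rule names are not reported here. Alternatives were DESeq2 1.42.0, library totals, no filter, a minimum of 10 counts per rat, a joint fit of the 3 groups, a log2 fold change of 1 and leaving out each rat. The depth of 14922973 to 27161496 counts limits precision for Slc7a11, Slc7a1, Slc1a5 and Slc38a1 in normal liver. Replicates are separate rats. The members, lists and thresholds were chosen with earlier results of these data known.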

Additional observations from a re-analysis of the deposited data

How the results depend on the processing

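Of the carriers' log2 fold changes under other tools, scalings, filters and fits, 134 kept their direction and side of the threshold, 5 came under it, 3 left it and 2 turned, and with a rat left out 143 kept both, 1 came under it, 32 left it and 4 turned. Fits in which a carrier was not tested are left out of these numbers. At the thresholds of the study, the count of carriers in DEN model against normal control was 5, and became 8 with DESeq2, 3 with at least 10 counts in every rat (7 carriers tested) and 3 to 6 when a rat was left out (3 without DEN model rats 13 or 24 or normal control rats 12 or 3, and 6 without DEN model rat 17). In PZH administration against DEN model the count of 0 became 1 with DESeq2, 3 with library totals, 2 with a log2 fold change above 1, and 0 to 4 when a rat was left out (4 without DEN model rat 17). Of all genes 347 passed these thresholds, 648 with DESeq2, 925 with library totals and 692 without DEN model rat 17. In PZH administration against normal control the count of 1 became 0 with at least 10 counts in every rat, where Slc7a11 was not tested. At an adjusted p under 0.05, the count of 9 in DEN model against normal control stayed 9 whichever rat was left out. It was 6 with at least 10 counts in every rat, where 7 carriers were tested. The count of 8 in PZH administration against DEN model ranged from 1 to 9 (1 without DEN model rat 13, 2 without rat 24, 2, 3 and 5 without PZH administration rats 28, 42 and 27, and 9 without DEN model rat 17). Over the same fits the number of all genes passing, 2722 with all rats, ranged from 271 to 3319. The count of 2 in PZH administration against normal control became 5 with DESeq2, 1 with at least 10 counts in every rat and 1 to 2 when a rat was left out (1 without PZH administration rats 28 or 42 or any normal control rat). Of all genes 696 passed there, 1320 with DESeq2 and 207 to 1326 when a rat was left out.

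The log2 fold change of Slc3a2 turned to 0.30 (DEN model against normal control) and -0.64 (PZH administration against DEN model) with library totals, and the latter to -0.19 without PZH administration rat 27 and -0.04 without DEN model rat 17 (range -0.19 to 0.19). That of Slc1a4 between PZH administration and normal control turned to -0.0051 without PZH administration rat 42 and -0.011 without normal control rat 12 (range -0.011 to 0.32). The cause was not tested. All 12 ratio differences kept their sign with 0.01 and 1 FPKM added and with each rat left out. Their size did not hold: over these settings that of Slc7a11 to Slc3a2 ran from 4.99 to 10.33 (DEN model against normal control) and from 2.06 to 6.78 (PZH administration against normal control). No paired analysis was possible because the rat numbers differ between all groups. Depth limits the carriers that normal liver barely expresses.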
